A study of Mus musculus with 10 samples.

Results

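The adhesion genes described here are 33 mouse genes: 25 integrin subunits, the immunoglobulin-type ligands Icam1, Icam2 and Vcam1, the selectins Sele and Selp with the selectin ligand Selplg, and the cadherins Cdh1 and Cdh2. The genes and the cell classes below were chosen by name, with earlier results of these data known. DNA methylation was read from every deposited window (1000 bp long, starting each 500 bp) that overlaps a gene or the 5 kb on either side of it. Of 869 such windows, 843 had at least 20 methylation calls in every mouse and were tested, out of 421759 windows in all. Of the 33 genes, 8 leukocyte genes (Itga4, Itgae, Itgal, Itgam, Itgax, Itgb2, Itgb7 and Selplg) are used mainly by white blood cells, 2 (Itga2b and Itgb3) are best known from platelets, and 23 belong to endothelial, epithelial, mesenchymal or several kinds of cells and are called structural-cell genes.

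The libraries held lung DNA of female BALB/c mice aged 8 weeks, captured and treated with bisulfite so that methylated and unmethylated CpGs differ in the reads. The saline group (n = 3) received no allergen. The OVA group (n = 3) was sensitized with 50 µg of ovalbumin (OVA) in alum and challenged through the nose with 25 µg, which induces allergic airway inflammation. The DSE group (n = 4), named Herb in the sample labels, received the same allergen and 200 mg/kg of an extract of Descurainia sophia seeds (DSE) by mouth. Each library is 1 mouse and whole lung, so all cell types of the tissue are mixed in each value, and in such bulk DNA a change within cells and a change in the mix of cells cannot be told apart. Total calls per mouse, each counted once although windows overlap, were 153328794 to 205414739. The middle window of these genes had 538 calls in a mouse. For that number, a 95% Wilson interval at 50% methylation runs from 45.8% to 54.2%, counting error only. Windows were compared with limma on M-values (the log2 ratio of methylated to unmethylated calls) in 1 fit over the 10 mice, and a window was called at an adjusted p under 0.05 over all windows.

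Integrins are heterodimers of an alpha and a beta chain that bind matrix proteins or proteins of other cells, and their affinity is switched on from inside the cell by talins and kindlins. In inflamed tissue, selectins on the vessel wall slow passing leukocytes, after which leukocyte integrins bind ICAM and VCAM molecules and the cells leave the vessel. Epithelial cells use laminin-binding integrins to hold the basement membrane and E-cadherin to hold each other. Promoters rich in CpGs are usually free of methylation in all cells, whereas CpG-poor promoters of cell-type genes are often methylated in the cells that do not use them, so that whole tissue shows values in between.

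Promoter sequences from RefSeq (GRCm38.p6; 250 bases before to 50 bases after the start) were matched for 21 of the 33 genes. The 4 shown here are the leukocyte genes with the lowest (Itga4) and highest (Itgax) promoter methylation in saline lung, and the structural-cell genes Itgb1, low, and Itgb6, the highest, with each CpG in capitals.
Itga4 promoter, chr2:79255176-79255475, forward strand: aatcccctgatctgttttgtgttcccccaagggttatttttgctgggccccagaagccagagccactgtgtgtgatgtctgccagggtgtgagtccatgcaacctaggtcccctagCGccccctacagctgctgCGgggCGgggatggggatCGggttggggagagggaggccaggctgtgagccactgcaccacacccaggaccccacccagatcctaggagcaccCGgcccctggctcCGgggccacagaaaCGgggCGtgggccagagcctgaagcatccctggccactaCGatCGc
Itgax promoter, chr7:128129300-128129599, forward strand: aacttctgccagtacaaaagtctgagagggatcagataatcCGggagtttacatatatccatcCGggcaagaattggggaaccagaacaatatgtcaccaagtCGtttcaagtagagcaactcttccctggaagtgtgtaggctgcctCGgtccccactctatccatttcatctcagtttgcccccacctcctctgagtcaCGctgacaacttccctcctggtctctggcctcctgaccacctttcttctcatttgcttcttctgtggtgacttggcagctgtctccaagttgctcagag
Itgb1 promoter, chr8:128685404-128685703, forward strand: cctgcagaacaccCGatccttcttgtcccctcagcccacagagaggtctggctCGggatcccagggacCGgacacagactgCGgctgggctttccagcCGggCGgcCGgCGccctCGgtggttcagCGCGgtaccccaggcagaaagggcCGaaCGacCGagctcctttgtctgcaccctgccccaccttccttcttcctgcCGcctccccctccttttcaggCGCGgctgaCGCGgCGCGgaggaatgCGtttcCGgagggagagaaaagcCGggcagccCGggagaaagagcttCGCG
Itgb6 promoter, chr2:60722554-60722853, reverse strand: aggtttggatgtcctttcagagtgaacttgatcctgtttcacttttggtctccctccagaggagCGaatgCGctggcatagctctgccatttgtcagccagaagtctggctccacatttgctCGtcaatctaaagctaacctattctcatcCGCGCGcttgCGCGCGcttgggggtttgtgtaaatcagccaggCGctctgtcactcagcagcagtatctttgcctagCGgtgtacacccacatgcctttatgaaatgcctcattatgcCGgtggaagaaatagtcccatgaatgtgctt
These 300 bases hold 10 CpGs in Itga4, 5 in Itgax, 27 in Itgb1 and 12 in Itgb6, against a median of 7 over 32851 mouse promoters of the same length. The 4 leukocyte genes with an entry had 5 to 10 CpGs and the 16 structural-cell genes 3 to 27. Among the latter, the entry of Itga9 lies 104983 bp from its curated start, inside the gene, and is not the promoter window measured below. The entry of Itgb7 lies at its curated start, 1470 bp from the start of the gene, and also outside the measured window. Itgam, Itgav, Sele and Selp have an entry but no promoter window with enough calls. Stretches of the genome (GRCm38) inside windows that differed between the groups are shown next, since the results below turn on them: Itga4 and Itgax, lower in OVA mice, Icam2, higher in OVA mice, and Itgav, higher in DSE mice.
Itga4 window, chr2:79258717-79259016, forward strand: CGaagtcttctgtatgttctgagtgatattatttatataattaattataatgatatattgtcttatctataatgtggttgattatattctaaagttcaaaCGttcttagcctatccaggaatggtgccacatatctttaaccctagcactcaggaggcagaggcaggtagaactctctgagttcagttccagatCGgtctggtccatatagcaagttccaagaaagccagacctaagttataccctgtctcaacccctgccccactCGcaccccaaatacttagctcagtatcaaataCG
Itgax window, chr7:128133001-128133300, forward strand: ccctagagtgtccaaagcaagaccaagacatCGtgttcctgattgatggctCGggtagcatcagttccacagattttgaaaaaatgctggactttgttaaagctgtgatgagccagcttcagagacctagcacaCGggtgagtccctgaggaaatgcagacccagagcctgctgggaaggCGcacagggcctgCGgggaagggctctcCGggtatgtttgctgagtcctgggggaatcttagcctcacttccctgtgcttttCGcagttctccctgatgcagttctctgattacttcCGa
Icam2 window, chr11:106389214-106389513, forward strand: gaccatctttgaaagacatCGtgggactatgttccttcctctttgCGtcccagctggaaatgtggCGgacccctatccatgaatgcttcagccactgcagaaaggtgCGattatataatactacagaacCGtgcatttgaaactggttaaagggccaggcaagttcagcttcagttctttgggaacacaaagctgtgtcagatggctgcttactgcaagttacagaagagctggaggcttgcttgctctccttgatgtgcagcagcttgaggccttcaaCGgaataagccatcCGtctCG
Itgav window, chr2:83723694-83723993, forward strand: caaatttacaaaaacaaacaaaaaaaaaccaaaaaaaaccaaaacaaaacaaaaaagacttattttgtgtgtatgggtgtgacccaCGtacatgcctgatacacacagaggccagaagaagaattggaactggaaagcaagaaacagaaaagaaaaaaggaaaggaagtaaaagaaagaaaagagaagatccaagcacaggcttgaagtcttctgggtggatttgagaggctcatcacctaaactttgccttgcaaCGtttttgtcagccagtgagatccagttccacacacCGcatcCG
Each is the run of 300 bases with the most CpGs in its window, which were 5 for Itga4, 8 for Itgax, 8 for Icam2 and 4 for Itgav.

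In saline lung, leukocyte and structural-cell genes differed in the methylation of their promoter windows, here the window nearest the start of the gene. A promoter window with enough calls was found for 26 of the 33 genes, and none for Itgae, Itgam, Itgav, Vcam1, Sele, Selp and Selplg. The 5 leukocyte promoters averaged 50.6% ± 3.55 (SD, n = 3 mice), and the 19 structural-cell promoters 12.2% ± 0.0916. Among the structural-cell promoters, 15 of 19 were under 10%, against 1 of 5 leukocyte promoters and 62.9% of all 21385 promoters. These are descriptions of gene lists, and no test was made between them. Itgax, which pairs with Itgb2 on dendritic cells and macrophages, was the highest of the leukocyte genes at 82.6% ± 9.38, and Itgb7, which pairs with Itga4 or Itgae on lymphocytes, followed at 66.7% ± 9.05. Their means differed by less than the sum of their SDs. Itgal, the alpha chain of LFA-1, was at 53.7% ± 4.61, and its partner Itgb2, the beta chain shared by the leukocyte integrins, at 47.4% ± 1.45. Itga4, which binds VCAM-1, was the exception among the leukocyte genes, at 2.59% ± 0.583. The platelet fibrinogen receptor was split, with 34.9% ± 3.00 at Itga2b and 1.35% ± 0.341 at Itgb3.

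Of the structural-cell genes, most that serve many cell types had promoters under 10%. Itgb1, the beta chain shared by most matrix-binding integrins, was at 0.717% ± 0.0261, Itgb8 at 1.33% ± 0.549, Itga8 at 2.41% ± 0.376 and Itgb5 at 4.65% ± 0.944. Itga5, the fibronectin receptor chain, stood slightly higher at 6.51% ± 1.57, and Itga9, with 15.8% ± 1.73, was the highest of this group. The laminin-binding chains Itga3, Itga6 and Itgb4 were at 1.19% ± 0.358, 2.67% ± 0.786 and 4.18% ± 0.915, and E-cadherin (Cdh1) at 2.16% ± 0.284. Itgb6, which activates TGF-beta at the surface of epithelial cells, had instead a promoter at 78.7% ± 0.935, the highest of the 19. Among the collagen-binding alpha chains, Itga1, Itga2 and Itga11 were at 1.16% ± 0.251, 1.51% ± 0.545 and 3.18% ± 0.473, whereas Itga10 was at 72.6% ± 2.42. Icam1, an endothelial ligand of the Itgb2 integrins, was at 1.87% ± 0.272 and Icam2 at 28.3% ± 2.94. The laminin receptor chain of muscle, Itga7, and N-cadherin (Cdh2) were at 2.90% ± 0.119 and 0.458% ± 0.484. The start of the longest gene model is not the start of the curated transcript in every gene: at the curated start, chosen after seeing the data, Icam2 was at 52% ± 2.10, Itgb7 at 49.4% ± 4.53, and Selplg and Itgav, not measured above, at 47.4% ± 1.47 and 0.732% ± 0.128.

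**Figure D1:**
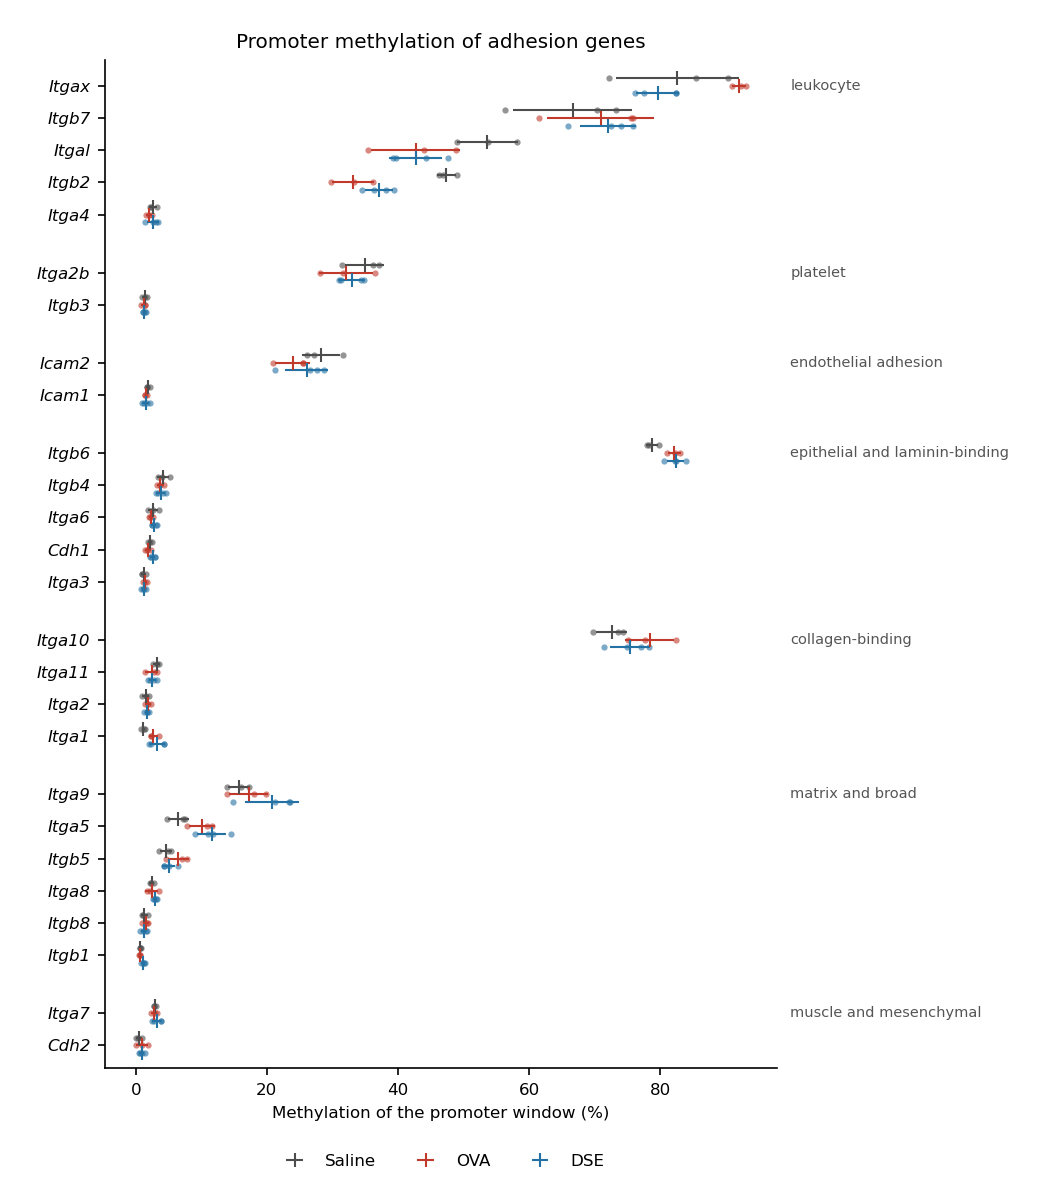
Methylation of the promoter window (%, horizontal axis) of the 26 measured adhesion genes, grouped by cell class, with 1 dot per mouse and the mean ± SD of the saline (grey), OVA (red) and DSE (blue) mice. Most structural-cell promoters lie under 10%, and the 3 Itgb2 OVA mice lie below the 3 saline mice.

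The promoter of Itgb2 fell in the OVA mice. Its window held 49%, 46.9% and 46.2% methylation in the saline mice, 36.3%, 33.2% and 29.8% in the OVA mice and 36.4%, 38.2%, 39.4% and 34.6% in the DSE mice. The saline mice lay above all 7 mice given OVA, and the fall of 14.3 percentage points in OVA vs. saline passed the test (limma adjusted p = 0.0176 over all promoters). It was the only one of the 26 promoters called in this comparison, in which 2.14% of all promoters were called (1.35% higher and 0.79% lower). Without saline replicate 1 or 2, or OVA replicate 2 or 3, it was not called. In DSE vs. saline, Itgb2 was again lower, by 10.2 points (limma adjusted p = 0.0236), and 2 structural-cell promoters were higher, where 6.79% of all promoters were called (5.41% higher and 1.38% lower). Itga1 went from 1.16% ± 0.251 to 3.25% ± 1.17 (limma adjusted p = 0.0243) and Itga5 from 6.51% ± 1.57 to 11.6% ± 2.25 (limma adjusted p = 0.0401). With any 1 saline mouse or DSE replicate 2 left out, none of the 3 was called, and with DSE replicate 3 or 4 left out 1 was. At the curated start, Selplg, the ligand that leukocytes present to P-selectin, was also lower in DSE vs. saline, at 36.6%, 32.5%, 37.1% and 28.8% in the DSE mice against 48.5%, 47.9% and 45.7% in the saline mice (limma adjusted p = 0.0290). Itgal showed 53.7% ± 4.61, 42.7% ± 6.79 and 42.7% ± 3.97 in saline, OVA and DSE mice, with no overlap between the saline and the other mice, but did not pass the test (limma adjusted p = 0.160 in OVA vs. saline).

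Itgax had the only member promoter called in DSE vs. OVA, a comparison in which 2.01% of all promoters were called (1.94% higher and 0.0748% lower). It held 92.3%, 91% and 93.1% in the OVA mice and 76.2%, 77.5%, 82.5% and 82.4% in the DSE mice, which do not overlap (limma adjusted p = 0.0418 over promoters). The saline mice, at 90.3%, 85.4% and 72.2%, lay on both sides of the DSE values, and all were below the OVA values. Adjusted over all windows in place of promoters, the same window was not called (limma adjusted p = 0.109), and leaving out saline replicate 2, any OVA mouse or any DSE mouse also ended the call.

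Around the start of the leukocyte genes, mean methylation over windows was lower in all mice given OVA, though not in every gene. Over the 9 non-overlapping windows centred within 1 kb of the curated start, in 6 genes, the mean was 53.4%, 49.7% and 46.7% in the saline mice, 44.9%, 40.9% and 42.7% in the OVA mice and 42.5%, 42%, 44.2% and 40.5% in the DSE mice. No mouse given OVA reached the lowest saline mouse. Counted once per gene, over the 5 promoter windows above, the ranges were 48% to 54.6%, 46.2% to 51% and 45.2% to 48.9% in saline, OVA and DSE mice, which overlap. Of those 5 promoters, Itgax and Itgb7 were higher in OVA than in saline mice and 3 were lower. At the curated start, 1 of 6 was higher and 5 were lower. From 1 to 5 kb inside the genes, the means were 49.7% ± 0.737 in saline, 42.5% ± 3.08 in OVA and 42.3% ± 1.78 in DSE mice. Between 5 and 20 kb the groups were close, at 56.7%, 56.4% and 56.6%, and beyond 20 kb the saline mice were the lowest, with 60.9% ± 0.406 in saline, 64.1% ± 0.875 in OVA and 64.4% ± 1.44 in DSE mice. Structural-cell genes were higher in OVA mice at each of these distances. Their means were 12.1% ± 0.222 in saline and 13% ± 0.50 in OVA mice within 1 kb, 38.5% ± 1.28 and 42.4% ± 0.449 from 1 to 5 kb inside, and 56.8% ± 0.637 and 58.4% ± 0.251 beyond 20 kb. The whole series was also higher in OVA than in saline mice, by a mean of 0.525 points over all promoters and 1.03 over all genes. Values by distance were not made for all genes, so these rises cannot be set against that shift at each distance. The mean over the 7 measured promoters of leukocyte markers was also lower. It ranged from 45.2% to 47.3% in saline, 36.7% to 42.5% in OVA and 36.8% to 41.1% in DSE mice, with no overlap between saline and the others. In OVA vs. saline, 5 of the 7 were lower and 2 higher (Siglecf and Cd79a), and none was called. The part of this shift in the result for the adhesion genes was not tested. These means over chosen genes are descriptions without a test.

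**Figure D2:**
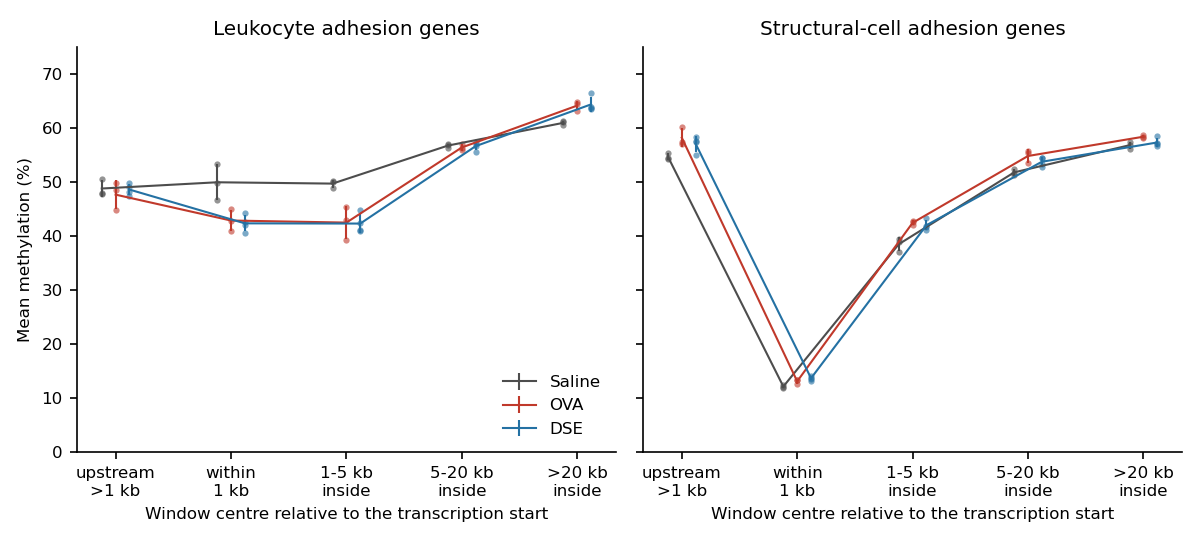
Mean methylation (%, vertical axis) of non-overlapping windows of leukocyte (left) and structural-cell (right) adhesion genes by distance of the window centre from the transcription start, with 1 dot per mouse and lines joining group means ± SD. In leukocyte genes within 1 kb of the start the saline mean is 49.9% and the OVA mean 42.8%, while structural-cell genes are at 12.1% and 13%.

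In OVA vs. saline, most called windows of leukocyte genes were hypo methylated, and in the fit of all 10 mice most of structural-cell genes were hyper methylated. Of the 843 windows, 75 were called, 42 higher and 33 lower in OVA mice, against 5.22% of all windows (3.22% higher and 2% lower). In the leukocyte genes, 11 of 140 windows were lower (4 each in Itga4 and Itgb2, 2 in Itgax and 1 in Itgb7) and 1, in Itgae, was higher. In the structural-cell genes, 39 of 648 windows were higher and 18 lower. The higher windows were led by Itga2, Itgav and Cdh1 with 5 each and Icam2 and Itgb5 with 4 each. Of the platelet pair, Itgb3 had 2 higher and 4 lower windows and Itga2b none. No window was called in Itga5, Itga6, Itga10, Itga2b, Itgal, Itgam, Itgb1, Itgb8, Vcam1, Sele, Selp and Selplg. Overlapping windows share calls, and the 42 higher windows made up 25 separate regions and the 33 lower windows 18.

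The number of calls depended on single mice. Without OVA replicate 3, 2 of the 843 windows were called, 1 lower each in the leukocyte and the structural-cell genes. The count was 4 without saline replicate 2, 8 without OVA replicate 2, 12 without saline replicate 1 and 35 without saline replicate 3, and 0 in a fit with the mice of the 2 groups alone. In the structural-cell genes the excess of higher windows was lost without OVA replicate 2 (2 higher and 3 lower), saline replicate 2 (1 and 2) or OVA replicate 3 (0 and 1). The median difference over structural-cell windows was 1.32 percentage points, and 1.21 to 1.64 with each mouse left out in turn, while that over leukocyte windows was -0.283, and -0.533 to 0.219. Over all windows it was 0.749. By the thresholds of the study (a logistic test of pooled calls, adjusted p under 0.01 and at least 10 points), which leave out the spread between mice, 64 windows of the 33 genes were hyper and 35 hypo methylated DMRs (differentially methylated regions), against 7.43% of all windows (4.83% higher and 2.6% lower), and 87 to 109 in all with 1 mouse left out. Marker genes of cell types moved in the same comparison. Of 174 windows of 10 leukocyte markers, 25 were lower and 6 higher, and of 145 windows of 9 lung structural markers 16 were higher and 1 lower. The part of cell numbers in the results for the adhesion genes was not tested.

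The largest fall was in Itga4, in intron 2 at chr2:79258501-79259500, which starts 3075 bp past the gene's start and overlaps no other gene. The window held 59.3%, 70.7% and 63.3% in the saline mice, 33.3%, 42.1% and 35.6% in the OVA mice and 57%, 44.8%, 61.5% and 52.2% in the DSE mice. All OVA mice lay below all other mice, and the saline and DSE mice overlapped. Methylation fell by 27.4 percentage points in OVA vs. saline (limma adjusted p = 0.0151), at 42 to 272 calls per mouse. A second called region in the same intron, at chr2:79257001-79258000, held 55.6%, 61.7% and 51.1% in the saline mice, 41.9%, 37.5% and 35.3% in the OVA mice and 48.7%, 42.1%, 48.6% and 37.8% in the DSE mice. It fell by 17.9 points in OVA vs. saline (limma adjusted p = 0.0275), again with no overlap. Itgax fell in a window over its exons 6 to 8 (chr7:128133001-128134000), with 60.7%, 63.5% and 56% in the saline mice, 50.2%, 35.7% and 34.7% in the OVA mice and 42.6%, 40.6%, 40.9% and 39.7% in the DSE mice. Every mouse given OVA was below every saline mouse, and the OVA mice spread more widely than the DSE mice (OVA vs. saline, limma adjusted p = 0.0225). In Itgb2, the window with the largest fall (chr10:77530501-77531500) lay in intron 1 and overlapped the promoter window described above. The 2 windows share calls and are not separate results. The intron 1 window held 51.6%, 49.7% and 48.8% in the saline mice, 33.9%, 35.1% and 28.6% in the OVA mice and 38.5%, 36.8%, 40.1% and 35% in the DSE mice. The groups of saline and OVA mice were 17.5 points apart (limma adjusted p = 0.0125), and this call held with each of the 10 mice left out in turn, unlike those of Itga4, Itgax and Itgb3, which held in 6 to 8 of the 10 fits. Itgb3, the beta chain of the platelet fibrinogen receptor and of the vitronectin receptor, fell in intron 1 (chr11:104613501-104614500), with 56.3%, 55.3% and 51% in the saline mice, 39.7%, 36.2% and 32.1% in the OVA mice and 34.6%, 35%, 43.5% and 32.2% in the DSE mice (OVA vs. saline, limma adjusted p = 0.0195).

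Among the structural-cell genes, the largest rise was in intron 2 of Itgav (chr2:83741001-83742000), the alpha chain of vitronectin receptors. It held 33%, 37.4% and 46.6% in the saline mice, 51.1%, 76.9% and 69.1% in the OVA mice and 53.2%, 59.3%, 56.2% and 55.1% in the DSE mice. The saline mice were the lowest, the OVA mice spread widely on both sides of the DSE mice, and the rise in OVA vs. saline was 26.8 points (limma adjusted p = 0.0306). Calls per mouse were 68 to 173. Intron 1 of the same gene moved the other way. At chr2:83728501-83729500 it held 62.2%, 47.5% and 56.7% in the saline mice, 38.3%, 43% and 36.5% in the OVA mice and 34.5%, 44.2%, 37.5% and 34.8% in the DSE mice, a fall of 16.2 points in OVA mice (limma adjusted p = 0.0438), called in 2 of the 10 fits with a mouse left out. Icam1 and Icam2, endothelial ligands of leukocyte integrins, had windows that rose, while none of the 3 windows of Vcam1 was called. Icam1 rose upstream (chr9:21010001-21011000, nearest edge at -4940 bp from the start), with 21.5%, 18.7% and 18.7% in the saline mice, 32%, 40.3% and 44.3% in the OVA mice and 31.5%, 42.7%, 37.5% and 36.9% in the DSE mice (OVA vs. saline, limma adjusted p = 0.0145). The same gene fell in intron 1 (chr9:21017501-21018500), by 13 points from a saline range of 39.6% to 47.4% (limma adjusted p = 0.0365), called in 4 of those 10 fits. Icam2 rose over exon 2 (chr11:106380501-106381500), with 48.9%, 44.5% and 49.9% in the saline mice, 59.7%, 71.2% and 67.5% in the OVA mice and 55.2%, 65.8%, 57.8% and 64.7% in the DSE mice (limma adjusted p = 0.0258). It rose also upstream (chr11:106389001-106390000, nearest edge at -6220 bp from the curated start), with 22.2%, 21.8% and 24.5% in the saline mice, 33.2%, 41.2% and 47.2% in the OVA mice and 32.8%, 39.3%, 43% and 39.5% in the DSE mice (limma adjusted p = 0.0201). In all 4 of these Icam1 and Icam2 windows, the saline and OVA mice did not overlap, and the DSE mice lay on the OVA side of the saline mice.

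Further rises lay close to the start of alpha chains that bind matrix. Itga1, a collagen receptor chain, rose in intron 1 (chr13:115100001-115101000), with 41%, 36.4% and 43.8% in the saline mice, 56.3%, 56% and 57.1% in the OVA mice and 54.1%, 57.5%, 55.4% and 56.5% in the DSE mice. The OVA mice lay close together, and the rise was 16.1 points (limma adjusted p = 0.0130), called in 9 of the 10 fits with 1 mouse left out. Itga8, a mesenchymal receptor chain, rose over exon 2 (chr2:12300001-12301000), with 29.6%, 28.6% and 35.8% in the saline mice, 56.5%, 44.1% and 48.4% in the OVA mice and 44.3%, 52.4%, 48% and 52.6% in the DSE mice (OVA vs. saline, limma adjusted p = 0.0220). Farther inside their genes, Cdh1 rose in intron 2 (chr8:106617001-106618000) from a mean of 23.4% in saline to 40.7% in OVA mice, with 30.7% in DSE mice (OVA vs. saline, limma adjusted p = 0.0247). That window had 48 to 96 calls per mouse. Itgb5 rose in intron 9 (chr16:33916001-33917000) from 24.4% to 41.7%, with 44% in DSE mice (limma adjusted p = 0.0495 in OVA vs. saline), and this call held in 1 of the 10 fits with 1 mouse left out. Near the 3′ end of Itga2, over exons 29 and 30 (chr13:114836501-114837500), methylation fell from 81.8% to 68.8%, with 66.1% in DSE mice (limma adjusted p = 0.0202 in OVA vs. saline). The named windows of Itgav intron 2, Icam2, Icam1 upstream, Itga8, Cdh1 and Itga2 were called in OVA vs. saline in 6 or 7 of the 10 fits. Each of these windows had no overlap between saline and OVA mice, as did 296 of the 843 windows and 27% of all windows tested, and the exact permutation test of 3 mice against 3 gave 0.1 for each, the smallest it can give.

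**Figure D3:**
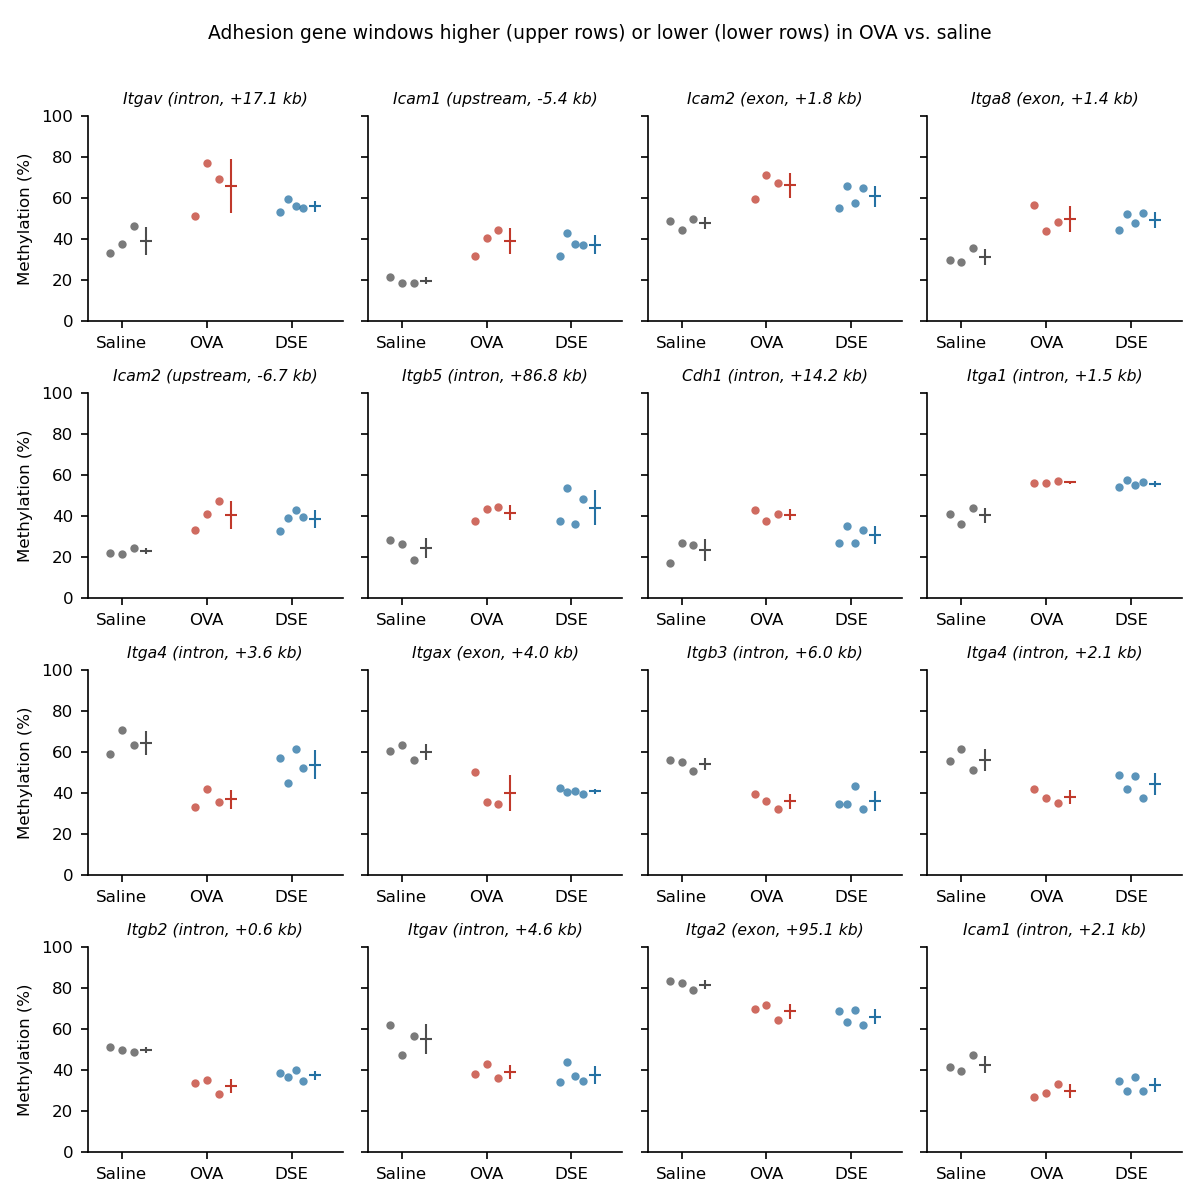
Methylation (%, vertical axis) of the 16 windows with the largest called differences in OVA vs. saline, 8 higher in the upper 2 rows and 8 lower in the lower 2, with 1 dot per mouse and the mean ± SD beside it. Each panel gives the gene, the feature and the distance of the window centre from the curated start. The saline and OVA mice do not overlap in any of the 16 windows.

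Averaged over whole genes, Itga4 was lower in OVA mice and 7 structural-cell genes were higher. A gene mean, over non-overlapping windows of the gene and 5 kb on each side, was available for 31 of the 33 genes, and Vcam1 and Sele had too few windows. Itga4 held 45.2%, 46.6% and 44.8% in the saline mice, 38.2%, 38.2% and 36.3% in the OVA mice and 41.2%, 39.8%, 39% and 35.9% in the DSE mice. The saline mice stood above all others, with a fall of 7.96 points in OVA vs. saline (limma adjusted p = 0.00490 over 24697 genes), called with each mouse left out. Itgb6 held 61.6%, 60.0% and 60.1% in the saline mice, 66%, 64.9% and 67.5% in the OVA mice and 63.7%, 66.6%, 64.1% and 65.6% in the DSE mice, so that all mice given OVA were above the saline mice. It rose by 5.59 points in OVA vs. saline (limma adjusted p = 0.00816), also called with each mouse left out. Icam2 rose by 5.51 points, from 41.5% ± 0.712 to 47% ± 1.97, Itga8 by 4.96, Itga3 by 3.36, Itga1 by 3.23, Itga2 by 3.11 and Itgb4 by 2.73. In this order, the calls held in 7, 5, 3, 1, 2 and 6 of the 10 fits with 1 mouse left out. With Itga4 and Itgb6, 8 of 31 members were called, where 15.4% of all genes were called (11.7% higher and 3.72% lower). Without saline replicate 2 or OVA replicate 3, 2 genes were called, and 3 to 5 were called without saline replicate 1 or 3, OVA replicate 2, or DSE replicate 2 or 4.

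Called or not, most structural-cell genes had a higher mean in OVA mice. Of the 21 structural-cell genes, 20 had a higher mean in OVA than in saline mice, all but Itgb8, with a median difference of 2.73 points. Of the 8 leukocyte genes, 3 were higher and 5 lower, with a median of -0.579, and over all genes the median was 1.01, with 17250 of 24697 genes higher. Selp, the P-selectin of endothelium and platelets, held 55.7% ± 2.22 in saline and 59.4% ± 1.15 in OVA mice and did not pass the test (limma adjusted p = 0.0533), nor did Itgav, at 40.8% ± 0.699 and 44% ± 1.97 (limma adjusted p = 0.0562), or Itga7, at 51% ± 0.608 and 53.9% ± 1.52 (limma adjusted p = 0.0709). The other 20 measured genes differed by -1.37 (Itgb3) to 2.91 (Itgb1) points in OVA vs. saline, and none of them was called. Although Itgb2 and Itgax had called windows near their starts, their gene means were 67% ± 0.821 and 66.2% ± 1.28, and 72.2% ± 2.02 and 71.8% ± 1.17, in saline and OVA mice.

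**Figure D4:**
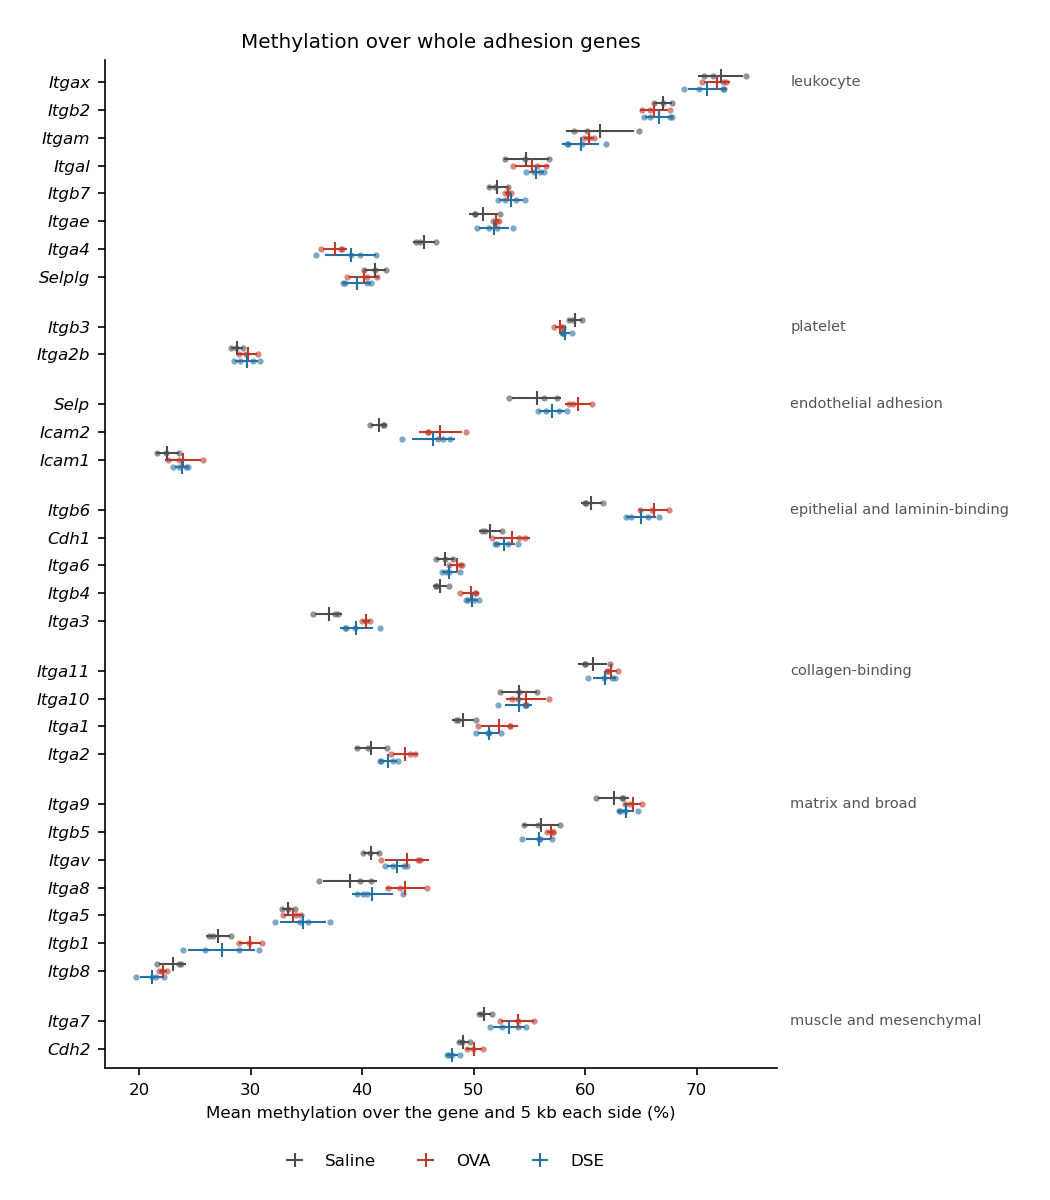
Mean methylation over each gene and 5 kb on each side (%, horizontal axis) for the 31 measured adhesion genes, grouped by cell class, with 1 dot per mouse and the mean ± SD of the saline (grey), OVA (red) and DSE (blue) mice. Itga4 is lower, and Itgb6 and Icam2 are higher, in the mice given OVA than in every saline mouse.

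In DSE vs. OVA, which shares the OVA mice with the comparison above, 4 of the 843 windows were called, 3 higher and 1 lower, against 0.475% of all windows (0.388% higher and 0.087% lower), and all 4 lay in structural-cell genes. Neither the direction nor the class was stable, since a fit of the OVA and DSE mice alone called 3 windows, all lower, 2 of them in leukocyte genes, and leaving out saline replicate 3 added 2 lower leukocyte windows. No gene mean of a member was called, where 0.364% of all genes were (0.283% higher and 0.081% lower). Without regard to calls, 19 of the 21 structural-cell gene means were lower in DSE than in OVA mice, with a median difference of -0.838 points, and the leukocyte genes were split into 4 higher and 4 lower. Over all genes, 12379 were higher and 12318 lower. At an unadjusted p under 0.05, 79 of the 843 windows differed, and 41809 of all 421759, a like share. The largest difference was in intron 2 of Cdh2, N-cadherin (chr18:16736501-16737500). It held 76.7%, 81.1% and 66.7% in the saline mice, 81.7%, 82% and 94.3% in the OVA mice and 53.8%, 55.7%, 46.9% and 55.9% in the DSE mice. The DSE mice lay below all other mice, with a fall of 32.9 points (limma adjusted p = 0.0234) at 35 to 143 calls per mouse. Itgav rose just upstream of its curated start (chr2:83723001-83724000, nearest edge at -397 bp), in a window that lies inside the gene span. Its values were 11.6%, 8.45% and 8.02% in the saline mice, 3.76%, 8.38% and 3.68% in the OVA mice and 22.1%, 21.2%, 27.4% and 13.5% in the DSE mice. The lowest DSE mouse was above every saline and OVA mouse, and the rise was 15.8 points (limma adjusted p = 0.0271). The other pair of calls were small changes in windows of low methylation. Intron 1 of Itga1, where the window also overlaps the gene Pelo (chr13:115089001-115090000), had a mean of 6.44% in OVA and 11.6% in DSE mice (limma adjusted p = 0.0335). Intron 9 of Selp (chr1:164138001-164139000) had 0.894% and 5.64% (limma adjusted p = 0.0245), at 85 to 190 calls per mouse. Without any one of the 3 DSE replicates 1 to 3, or without OVA replicate 3, none of the 4 calls remained, and without OVA replicate 1 or 2 or DSE replicate 4, 1 or 2 windows were called. The exact permutation test of 3 against 4 mice gave 0.0571 for each window, the smallest it can give, and the OVA and DSE mice did not overlap in 83 of the 843 windows, against 10.3% of all windows.

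By the study's thresholds on pooled calls, 10 windows of the adhesion genes were DMRs in DSE vs. OVA, 4 hyper and 6 hypo methylated, against 1.59% of all windows (0.888% higher and 0.699% lower). They lay in Cdh2, Itga6 and Itgax (2 each) and Itga10, Itga4, Itgav and Selp (1 each), and the pair in Itgax holds the same calls. Of these 10, 2 were called by limma (Cdh2 and Itgav). The Itga4 window of intron 2 with the largest fall in OVA mice was among them, at a mean of 64.4% in saline, 37% in OVA and 53.9% in DSE mice. Its OVA and DSE mice did not overlap, yet it did not pass limma (adjusted p = 0.155). A window upstream of Itga10 (chr3:96644501-96645500) had 59.1%, 69.6% and 58.7% in saline, OVA and DSE mice, with OVA and DSE mice that overlapped (limma adjusted p = 0.375). These 2 genes were singled out after their values were seen. None of the 16 windows with the largest differences in OVA vs. saline was called by limma in DSE vs. OVA.

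**Figure D5:**
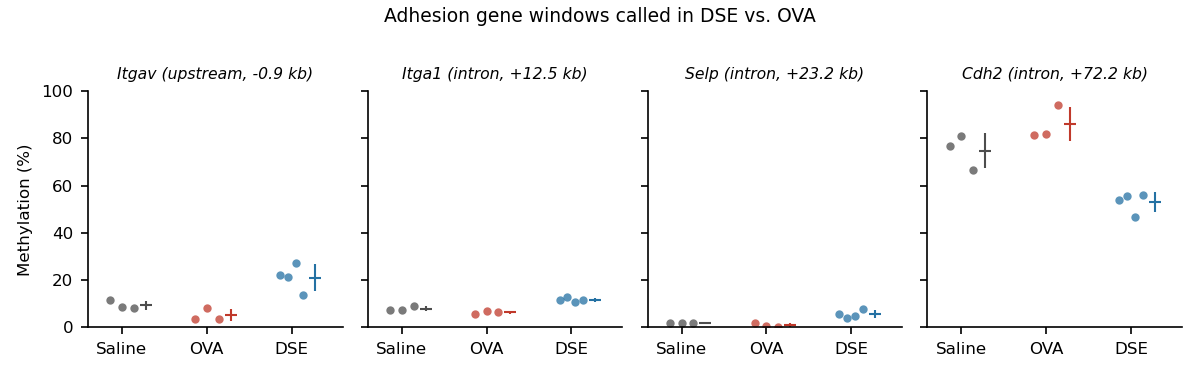
Methylation (%, vertical axis) of the 4 windows called in DSE vs. OVA, with 1 dot per mouse and the mean ± SD beside it. Each panel gives the gene, the feature and the distance of the window centre from the curated start. The 4 DSE mice lie above all other mice in Itgav, Itga1 and Selp and below them in Cdh2.

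In DSE vs. saline, 103 of the 843 windows were called, 58 higher and 45 lower, against 8.73% of all windows (5.57% higher and 3.17% lower). The leukocyte genes had 13 lower windows (5 in Itga4, 3 in Itgb2, 2 each in Itgax and Selplg and 1 in Itgb7) and 2 higher windows, in Itgae. The structural-cell genes had 54 higher and 28 lower windows, and the platelet pair 2 and 4. By the study's thresholds, 52 windows were hyper and 47 hypo methylated DMRs, against 8.11% of all windows (5.02% higher and 3.09% lower), and the saline and DSE mice did not overlap in 253 of the 843 windows, against 24.3% of all. Both comparisons use the same saline mice, so the likeness of this pattern to that of OVA vs. saline is not independent of them. The largest rise was upstream of Icam2 (chr11:106388501-106389500), at 26.8%, 22.7% and 25.9% in the saline mice, 34%, 45.7% and 49.1% in the OVA mice and 41.8%, 52.3%, 61.5% and 57.1% in the DSE mice. All mice given OVA were above the saline mice, with a difference of 28 points in DSE vs. saline (limma adjusted p = 0.00850) at 26 to 67 calls per mouse. Itga9, the chain that pairs with Itgb1 to bind tenascin, rose in intron 17 (chr9:118801001-118802000) from 38.1% to 56.4% (limma adjusted p = 0.0310) and fell in intron 11 (chr9:118674501-118675500) from 64.1% to 47.7% (limma adjusted p = 0.0364). Itga2 rose in intron 1 (chr13:114923501-114924500) from 51.2% to 64.9% (limma adjusted p = 0.0126). E-cadherin fell in intron 2 (chr8:106634001-106635000), with 65.1%, 73.9% and 62.5% in the saline mice, 55.8%, 53.2% and 53.9% in the OVA mice and 48.8%, 51.6%, 40.2% and 41.9% in the DSE mice (DSE vs. saline, limma adjusted p = 0.00879), and this call held with each mouse left out. N-cadherin fell in a second part of intron 2 (chr18:16714001-16715000), from 74% to 56.8% (limma adjusted p = 0.00745), also held with each mouse left out. Downstream of Itgb5, in a window that overlaps Umps (chr16:33954001-33955000), methylation went from 76.9% to 57.2% (limma adjusted p = 0.0278).

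The windows of Itgb5, Itga8, Icam1, Itga1, Itgax, Itgb3 and Itgav intron 1 named for OVA vs. saline were among the largest here too, with differences in DSE vs. saline of 19.6, 18, 17.5, 15.5, -19.1, -17.9 and -17.7 points. Icam2 rose in intron 1 (chr11:106381001-106382000) by 13.8 points. Over whole genes, Itga4 was lower by 6.54 points (limma adjusted p = 0.00523), and Icam2, Itgb6 and Itgb4 were higher by 4.87, 4.45 and 2.85 points, 4 called members where 22% of all genes were called (17.2% higher and 4.82% lower). Among the structural-cell windows called, the balance of higher to lower was lost in several fits, with 7 higher and 14 lower without saline replicate 2, 21 and 22 without saline replicate 3, 16 and 18 without DSE replicate 4, and 6 and 8 with a replicate block. The count over all 33 genes fell to 24 without saline replicate 2, 42 without saline replicate 1, 59 without saline replicate 3, 49 without DSE replicate 2 and 47 without DSE replicate 4.

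The partners of integrins in the cell were followed by a list of 20 genes of integrin activation and focal adhesions. In OVA vs. saline, 4 of the 20 gene means were called higher and 3 lower, where 11.7% of all genes were called higher and 3.72% lower, which is also the background of the lists that follow. For these lists, genes said to rise or fall are those called. Whether their calls hold with a mouse left out was not examined. The genes that rose were Fermt2 (kindlin-2, 46.5% ± 0.253 to 53.2% ± 2.15), the focal adhesion kinase Ptk2 (47% ± 0.871 to 51.5% ± 0.781), the actin crosslinker Actn1 and Parva. Those that fell were Fermt3 (kindlin-3, the kindlin of blood cells, 58.5% ± 1.57 to 53.9% ± 0.233), Ptk2b and Parvg, the parvin of blood cells (67.9% ± 0.993 to 59% ± 0.830). The promoter of Parvg was also lower, at 80.0%, 57.7% and 73.1% in the saline and 42.9%, 31.9% and 44.4% in the OVA mice (limma adjusted p = 0.0267), from as few as 21 calls in a mouse. At the curated start of Parvg, with at least 615 calls, the difference was -10.9 points and was not called (limma adjusted p = 0.0603). Of 13 measured genes in a list of 14 other selectin, ligand and junction genes, the endothelial Pecam1 and Cdh5 rose (36.6% ± 0.603 to 42% ± 1.72 and 44.7% ± 0.917 to 49.3% ± 2.64), and the hyaluronan receptor Cd44 fell (50.1% ± 0.542 to 44% ± 2.03). Among the marker genes, 2 of 9 measured leukocyte markers fell (Ptprc and Laptm5) and 1 rose (Vav1), and 4 of 8 measured lung structural markers rose (Sftpc, Scgb1a1, Tek and Cdh5) and none fell. Cdh5 is in both the junction list and the marker list, and is counted in each. The mean over the leukocyte markers ranged from 49.8% to 50.9% in saline, 48.6% to 49.4% in OVA and 48.1% to 49.5% in DSE mice. That over the lung structural markers ranged from 47.4% to 48.6%, 50.6% to 53% and 50.7% to 52.4%. No gene of the pathway or marker lists had a gene mean called in DSE vs. OVA.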

How the data were processed

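Lung DNA libraries of 10 mice (saline n = 3, OVA n = 3, DSE n = 4) were grouped by their titles, with the group titled Herb taken as DSE. The authors trimmed, mapped and counted the reads (cutadapt 1.10, Bismark 0.19.0 and methylKit 1.0.0 on mm10 per the labels' processing notes, while the methods of the study name other versions) and deposited counts of methylated and unmethylated calls per window, without normalization. The SureSelect capture covers selected regions only, and bisulfite calls cannot separate 5-methylcytosine from 5-hydroxymethylcytosine. Gene spans, exons and starts came from RefSeq GRCm38.p6, the same build as mm10. Percent methylation is 100 times methylated calls over all calls. Windows needed 20 calls in every mouse. limma 3.58.1 (R 4.3.3), with a trend and 7 residual degrees of freedom, was run on log2((methylated + 1)/(unmethylated + 1)), with Benjamini-Hochberg adjustment over all windows. It was also run over 21385 promoter windows, and over 24697 genes on mean percent with at least 3 windows. The logistic likelihood ratio test of pooled calls follows the study's stated thresholds. Single values were also compared by exact permutation tests, two-sided. The tests were run first on simulated calls. The 33 genes, the classes and the lists were chosen with earlier results of these data known. Named windows are, per comparison, those with the 8 largest differences in each direction, 1 per group of overlapping called windows. Alternatives were another minimum, pseudocount, scale, flank, threshold, windows that do not overlap, a replicate block and each mouse left out. The curated start was added after seeing the data. Replicate numbers do not pair the mice, since same-numbered mice deviated together with correlations of -0.0273 to 0.0785 over all windows and -0.11 to 0.112 over those of the 33 genes, and libraries of a group differed by more than counting error (chi-square per window 2.41 to 3.34). P-values of limma and of the permutation tests rest on the spread between mice, whereas those of the logistic test take every call as independent. Intervals cover counting error only.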

Additional observations from a re-analysis of the deposited data

Results flagged for a closer look

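A mouse far from the others of its group was looked for in the 4 DSE mice, over 85 named windows, promoter values and gene means of the adhesion genes. There were 2 such values, both gene means of DSE replicate 2. Itga10 was at 52.2% in that mouse and 54.6% to 54.7% in the other 3 DSE mice. Itgb3 was at 58.8% against 57.9% to 58.1%. Chance alone gives about 1 in 20, which is more than was found, and neither gene was called in any comparison of gene means.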

How the results depend on the processing

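The counts of called windows were the least stable results. No named difference changed sign under any of the alternatives, but this was largely fixed in advance and is no measure of stability. The named windows were chosen for large differences, and the groups compared did not overlap in them. Most alternatives also changed the test and not the difference in percent. In OVA vs. saline, the 75 called windows became 0 in a fit with the mice of the 2 groups alone, 0 at an adjusted p under 0.01, 12 with a replicate block and 36 over windows that do not overlap, which are every other window by construction. With each mouse left out in turn the count was 2 to 63. In DSE vs. OVA, the 4 windows became 0 at an adjusted p under 0.01 and 0 with the replicate block, and 0 to 6 with a mouse left out. In DSE vs. saline, the 103 windows became 50 without overlapping windows, 12 at the stricter threshold, 15 with the replicate block and 24 to 103 with a mouse left out. DMRs by the study's thresholds were 0 in all 3 comparisons under an F test that allows for overdispersion, in place of 99, 10 and 99, and 5, 1 and 7 at a difference of at least 20 points. With a mouse left out they numbered 87 to 109, 8 to 17 (17 without DSE replicate 2) and 79 to 104. Called genes in OVA vs. saline were 3 from pooled calls, 4 without the flanks, 3 with the replicate block and 2 to 9 with a mouse left out, in place of 8. In DSE vs. OVA they were 7 from pooled calls, in which deep windows weigh more, in place of 0, and in DSE vs. saline 10 from pooled calls, 1 with the replicate block and 3 to 5 with a mouse left out, in place of 4. Called promoters, 1, 1 and 3 in the 3 comparisons, became 4, 3 and 8 with all windows within 1000 bp of the start, 0 in DSE vs. OVA and 1 in DSE vs. saline on the percent scale, and 0 and 1 there with the replicate block. With a mouse left out they were 0 to 1, 0 to 1 and 0 to 3. The replicate numbers share only a number, so a call lost under the block is no measure of a weaker effect. Causes of these shifts were not tested, other than those that follow from fewer windows, mice or degrees of freedom.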
